A study of Arabidopsis thaliana with 12 samples.

Results

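AT4G31530 and AT3G04650 are 2 nuclear genes of *Arabidopsis thaliana* that encode proteins of the dinucleotide-binding oxidoreductase classes, the first with an NAD(P)-binding fold and the second an FAD/NAD(P)-binding oxidoreductase. The array's annotation gives a single gene for 692 of its 3439 probes, and 2 of these are the probes of these genes, 3215 for AT4G31530 and 410 for AT3G04650. Both were picked because their RNA had been seen to be lower in one group of these very samples, so the difference between the groups is described below without a test, and nothing is supported with it.

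Total RNA of ecotype Landsberg was measured in 12 samples on an expression array that reports a spot intensity for each probe. One group held 6 samples of dark-adapted wild type plants. The other held 6 samples of the laf6 mutant, which lacks atABC1, after dark adaptation followed by 1 h of normal light. Genotype and light changed together, and their parts in any difference cannot be told apart. The labels give no tissue, age or description of the allele, and nothing in them shows that numbered samples are separate plants. The p-values therefore reflect sample-to-sample spread alone, possibly a technical one. In RNA from whole tissue, fewer cells of a type and less RNA per cell cannot be told apart.

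Enzymes with a Rossmann-type fold hold NAD(P) in a pocket of alternating strands and helices and pass hydride between the nicotinamide ring and their substrate. Flavoproteins of the FAD/NAD(P)-binding class carry electrons on FAD, often taking them from NAD(P)H. In chloroplasts, enzymes of both classes serve in pigment synthesis, redox control of photosynthesis and electron transfer around the photosystems, and the supply of NADPH there changes between darkness and light. The missing protein of laf6, also called SUFB, belongs to the plastid machinery that assembles iron-sulphur clusters, and plants with the laf6 mutation were isolated for a long hypocotyl in far-red light. The substrates of the proteins of AT4G31530 and AT3G04650 are not given in the sources used here.

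AT4G31530 gave one of the brightest spots of the array. In wild type samples 1 to 6 its deposited intensity was 49.7, 49.3, 52.4, 51.6, 41.7 and 43.3. In the laf6 samples 1 to 6 it was 22.3, 21.9, 18.5, 17.6, 23.5 and 24.1. All 6 laf6 samples lay below all 6 wild type samples, and the lowest wild type value was 1.73 times the highest laf6 value. Samples 5 and 6 were the lowest of wild type and the highest of laf6, and samples 3 and 4 the reverse.

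AT3G04650 gave a spot of moderate brightness. Its intensity was 3.44, 3.19, 3.75, 4.51, 2.98 and 2.84 in wild type samples 1 to 6. In laf6 it was 1.73, 1.49, 1.32, 1.62, 1.88 and 1.90. The groups did not overlap here either, with the lowest wild type value 1.49 times the highest laf6 value. Samples 3 and 4 were again the highest of wild type and samples 5 and 6 the lowest, and in laf6 samples 5 and 6 were again the highest.

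**Figure D1:**
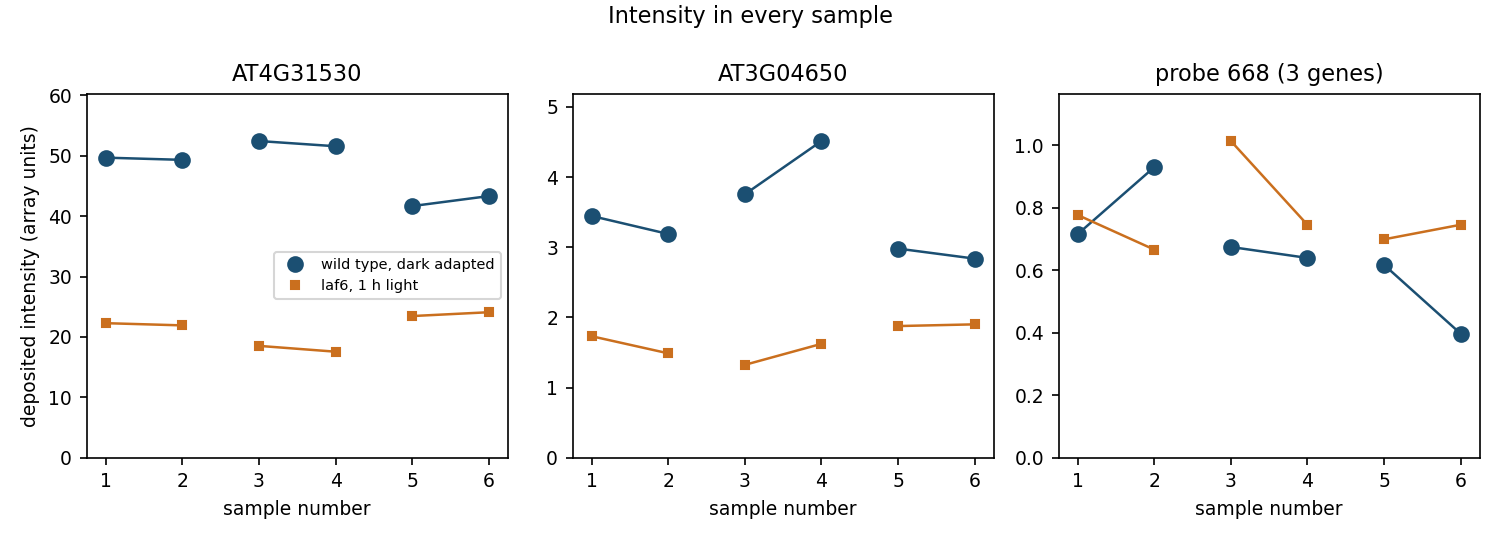
Deposited intensity (array units, linear axis from 0) of AT4G31530, AT3G04650 and probe 668, which 3 genes share, against the sample number. Circles are dark-adapted wild type, squares are laf6 after 1 h of light, and lines join the samples that were averaged. The wild type values of AT4G31530 lie between 41.7 and 52.4 and its laf6 values between 17.6 and 24.1, while the groups of probe 668 overlap.

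Consecutive samples lay close together. For AT4G31530, samples 1 and 2, 3 and 4, or 5 and 6 of a group differed by 0.011 to 0.077 on the log2 scale, and the other pairs of a group by 0.054 to 0.46. For AT3G04650 the consecutive samples differed by 0.019 to 0.29 and the other pairs by 0.093 to 0.67. Each such pair of samples was taken as 1 replicate, by its mean intensity, so that a group had 3 replicates. This had been planned from an earlier report on these data, in which consecutive samples were the closest, and not from the 2 genes. Over the 1387 probes with a mean intensity above 0.3, the deviations of consecutive samples from their group mean correlated with r from 0.12 to 0.68 in wild type and from 0.016 to 0.68 in laf6, across probes, which are not independent replicates. The other pairs had -0.53 to -0.12 and -0.63 to 0.17. The laf6 samples 1 and 2, at 0.016, lay above every other pair that holds either of them (-0.63 to -0.27). The 0.17 belongs to laf6 samples 4 and 6. Over all 3439 probes the correlations of consecutive samples were -0.11 to -0.039 in wild type and -0.15 to -0.0054 in laf6. The other pairs had -0.33 to -0.11 and -0.29 to -0.14. Deviations from a group mean correlate negatively by construction where samples are unrelated, so the negative sign alone is not informative. The consecutive pairs of wild type lay above all its others, the nearest at -0.111 against -0.114. In laf6 the samples 3 and 4 (-0.15) did not, as samples 4 and 6 had -0.14. The averaging rests on the values and not on the labels, and without it limma called 774 probes in place of 335.

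As averaged replicates, AT4G31530 had an intensity of 48.0 ± 4.93 in dark wild type and 21.3 ± 2.95 in illuminated laf6 (SD, n = 3 replicates each). The laf6 level was 44.4% of the wild type level. AT3G04650 had 3.45 ± 0.624 and 1.66 ± 0.211 (SD, n = 3 each), so its laf6 level was 48.0% of that of wild type. The coefficient of variation was 10.3% in wild type and 13.8% in laf6 for AT4G31530, and 18.1% and 12.8% for AT3G04650. On the log2 scale the deposited values differed by -1.18 for AT4G31530 and by -1.05 for AT3G04650.

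The size of the difference went with the sample number in both genes. Between samples 1 and 2 of the groups, AT4G31530 was 2.24 times as high in wild type as in laf6. The ratio was 2.88 for samples 3 and 4 and 1.79 for samples 5 and 6. The ratios of AT3G04650 stood in the same order, at 2.06, 2.80 and 1.54. The median intensity over all probes of a wild type sample, which ranged from 0.218 to 0.289, was also highest in samples 3 and 4 and lowest in samples 5 and 6, whereas in laf6 it stayed between 0.161 and 0.170. Its part in the order of the ratios was not tested.

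The typical probe of the array was lower in laf6 too, although the mean intensity of a sample was not set apart, at 0.856 to 1.07 in wild type and 0.910 to 1.01 in laf6. The median log2 difference of all 3439 probes was -0.54 as deposited, and 83.0% of the 454 probes of 1 gene with no sample at 0 had a negative difference. All 6 laf6 samples lay below all 6 wild type samples in 17.9% of the probes as deposited, and in 7.73% after quantile normalisation, which gives all replicates the same distribution of values. These shares are the background of the missing overlap in both genes, from which nothing is read here, because the genes were picked on this contrast. A single probe stood at the ceiling of the scale in every sample. Counted per sample, 1 to 3 probes were at the ceiling in wild type and 2 to 5 in laf6. Whether the authors scaled each array to its brightest spot is not given, and if they did, each deposited ratio, percentage and difference also depends on that spot. Neither AT4G31530 nor AT3G04650 reached the ceiling or 0 in any sample.

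After normalisation the median difference of all probes was -0.08. AT4G31530 then had a log2 difference of -1.55 and AT3G04650 one of -0.95, with no test. Among the 454 probes of 1 gene with no sample at 0, AT4G31530 was in place 3 from the most negative normalised difference and in place 68 as deposited. AT3G04650 was in place 23 and in place 92. Both genes thus stood closer to the low end of the order on the normalised scale than on the deposited one.

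The 2 genes moved in opposite ways when the arrays were normalised, AT4G31530 from -1.18 to -1.55 and AT3G04650 from -1.05 to -0.95. Quantile normalisation replaces an intensity by a value that depends only on its rank among the spots of the array. AT4G31530 had rank 9 in all 3 wild type replicates, counted from the brightest spot, so these received one and the same normalised value of 5.87 and their own spread was removed. In the laf6 replicates 1, 2 and 3 its ranks were 26, 33 and 23, and the normalised values 4.38, 4.03 and 4.58. AT3G04650 had ranks 148, 128 and 136 in wild type and 249, 279 and 202 in laf6. Its normalised values were 1.61, 1.87 and 1.76 in wild type and 0.75, 0.58 and 1.06 in laf6. The ranks place spots on an array and do not compare amounts of RNA between genes.

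Other spots changed places with both genes. Of the probes below AT4G31530 in every wild type sample, 12 were above it in every laf6 sample. A spot between the levels of the gene in the groups can pass it with no change of its own. As deposited, 10 of these 12 had a positive difference and 2 a negative one. Of the 12, 2 had a single gene, which were LHB1B2, a chlorophyll-binding antenna protein, and AT5G38360. For AT3G04650, 40 probes went past it in this way, 32 with a positive and 8 with a negative difference. Probes that fell as much as the gene cannot pass it. The selection itself thus favours positive differences, and nothing is read from the counts of either gene. Of the 40, 7 had a single gene, which were AT3G09080, AT5G65220, AT4G17650, AT1G06730, AT1G07970, AT1G73430 and PSBY, a subunit of photosystem II.

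The array-wide shift differed with spot brightness, so each gene was also set beside probes whose mean intensity over all samples lay within 2-fold of its own, a window chosen after the data had been seen. Around AT4G31530, between 17.3 and 69.3, there were 23 other probes, and their median log2 difference as deposited was 0.42. Of these, 15 had a positive and 8 a negative difference, and the most negative was -0.54, against the -1.18 of AT4G31530. Around AT3G04650, between 1.28 and 5.11, there were 245 other probes with a median of -0.29, of which 13 had a more negative difference than the -1.05 of AT3G04650. After normalisation the medians of the 2 windows were 0.36 and -0.14. Among spots of like brightness, AT4G31530 was thus the lowest of its window in laf6 relative to wild type, and AT3G04650 was within the low end of its window, both as a description of genes picked for a low value.

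**Figure D2:**
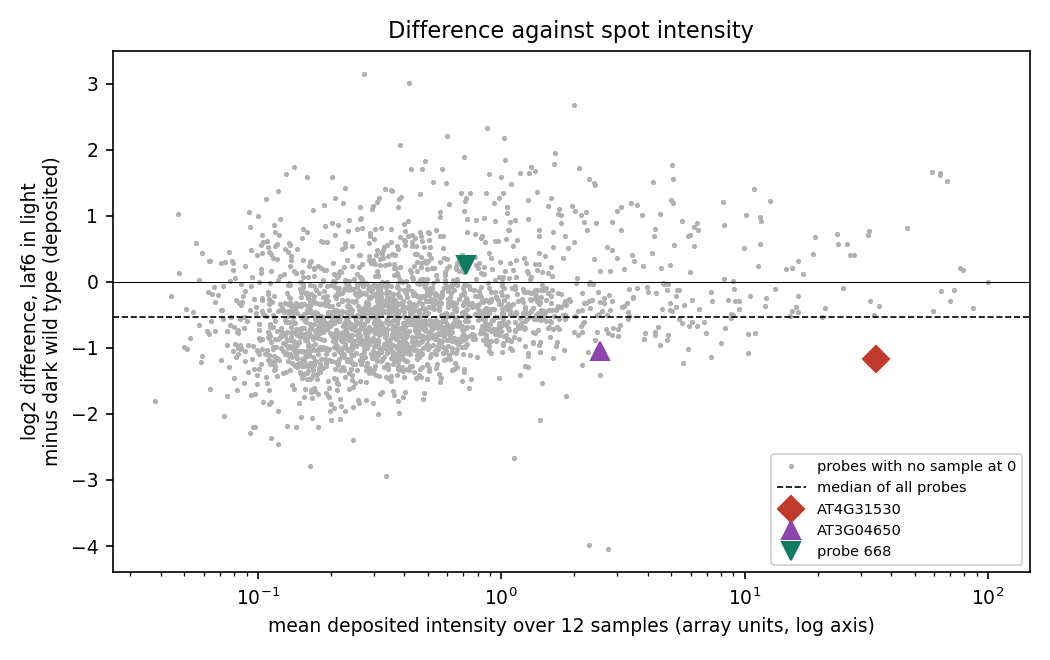
Log2 difference of the deposited values, laf6 in light minus dark wild type, against the mean intensity over 12 samples (log axis), for the 2289 probes with no sample at 0. The dashed line is the median of all probes at -0.54. AT4G31530, at -1.18, lies below the 23 other spots within 2-fold of its brightness, AT3G04650, at -1.05, lies among the low ones, and probe 668, at 0.25, lies above the line.

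A second spot lists AT4G31530 among its genes. Probe 668 is annotated with AT5G02240, AT4G31530 and AT2G37660, so its value cannot be given to any one of them. Its intensity in wild type samples 1 to 6 was 0.716, 0.931, 0.675, 0.640, 0.618 and 0.398. In laf6 it was 0.777, 0.667, 1.01, 0.746, 0.699 and 0.746. The groups overlapped, with a wild type mean of 0.663 ± 0.158 against 0.775 ± 0.0910 for laf6 (SD, n = 3 each), and the log2 difference was 0.25 as deposited and 0.57 after normalisation. The shared spot therefore did not show the lower laf6 level of the spot that lists AT4G31530 alone, and which RNA it binds was not tested.

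The direction of the difference was negative for both genes under all 14 settings that were run, but its size was not fixed. With each replicate centred on its median in place of quantile normalisation, the log2 difference was -0.57 for AT4G31530 and -0.45 for AT3G04650, against a median of 0.06 over all probes. Without laf6 replicate 2, the average of samples 3 and 4, AT4G31530 had -1.35 after quantile normalisation and AT3G04650 had -0.82. That the sign held was made likely by the choice of genes whose groups do not overlap.

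**Figure D3:**
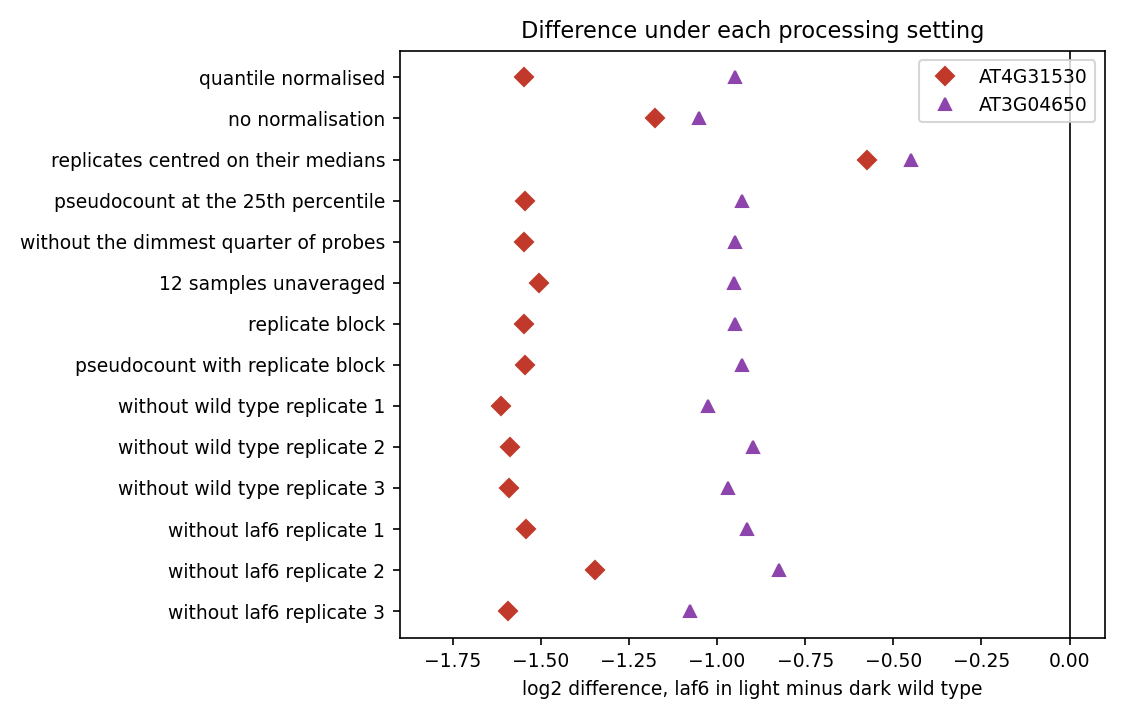
Log2 difference (laf6 in light minus dark wild type) of AT4G31530 (diamonds) and AT3G04650 (triangles) under each of 14 processing settings. Values run from -1.61 to -0.57 for AT4G31530 and from -1.08 to -0.45 for AT3G04650, and the ones nearest 0 are those with replicates centred on their medians.

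Other oxidoreductases of the array were found through the symbols and synonyms in the RefSeq gene table (assembly TAIR10.1) and through a hand-made list of plastid enzymes that use NAD(P) or FAD. By name, 264 loci are oxidoreductases, dehydrogenases or reductases, of which 7 had a probe of 1 gene. The hand-made list held 33 loci, of which 3 were measured, all of them among the 7. A name with FAD or flavin was held by 11 loci, none of them measured, and no locus was named as NAD(P)-binding. The search saw symbols and synonyms but no product descriptions, and it found neither AT4G31530 nor AT3G04650. These counts therefore describe the names and not the genes of the genome or the array. The 7 genes came from the general oxidoreductase names. How well they stand for the classes of AT4G31530 and AT3G04650 was not tested. None of the 7 genes was called in limma at an adjusted p under 0.05 over all 3439 probes and none had an unadjusted p under 0.05. Of all probes, 9.74% were called, 4.25% lower and 5.5% higher in laf6, and 25.9% had an unadjusted p under 0.05. With 7 genes, a count of 0 is close to that background. Of the 7, GLDH, ETFQO and NdhN had samples at 0 and SE values of 1.01, 3.55 and 4.41 on the normalised log2 scale. Only large differences could thus be called for these, and 4 of the 7 had no sample at 0. The adjusted p-values of the 7 in limma ran from 0.230 to 0.802. With the replicate number as a block, 0 of the 7 and 0.349% of all probes were called.

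The NADP-dependent malate dehydrogenase AT5G58330 serves the export of reducing power from the chloroplast as malate. Its intensity ranged from 0.166 to 0.316 in wild type, with a median of 0.197, and from 0.0397 to 0.127 in laf6, with a median of 0.0917. The groups did not overlap as deposited, as was so for 17.9% of all probes with laf6 lower. The log2 difference there was -1.28 and the adjusted p in limma was 0.041, on a scale where 10.5% of all probes were called lower. After quantile normalisation the difference was -0.59 ± 0.27 (SE) and the adjusted p was 0.258. The gene passed the threshold on the deposited scale alone among the 14 settings, whose adjusted p-values lay between 0.128 and 0.423 otherwise.

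NTRC, the plastid thioredoxin reductase that draws on NADPH, had 0.344 to 0.502 in wild type (median 0.392) and 0.196 to 0.419 in laf6 (median 0.303). Its groups overlapped, and its log2 difference was -0.41 as deposited and 0.08 ± 0.15 (SE) after normalisation. As deposited it was lower in laf6 in 6 of 6 same-numbered pairs, which hold only 3 averaged replicates per group. On that scale 83.0% of the 454 probes of 1 gene with no sample at 0 had a negative difference. The sign for NTRC therefore depended on the scaling. AT1G74470, the geranylgeranyl reductase that makes the phytyl tail of chlorophyll, had 3.08 to 5.11 in wild type (median 4.49) and 4.051 to 5.404 in laf6 (median 4.86). It was the only one of the 7 with a positive difference on both scales, 0.21 as deposited and 0.23 ± 0.10 (SE) after normalisation. It was higher in laf6 in 6 of 6 same-numbered pairs, again from 3 replicates per group. The labels do not give such pairs, and the share of all probes with 6 of 6 in one direction was not counted. Nothing is therefore read from these counts for NTRC and AT1G74470. AT1G74470 was not called (adjusted p = 0.230 in limma).

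NdhS and NdhN are subunits of the chloroplast NADH dehydrogenase-like complex, which returns electrons from ferredoxin to plastoquinone. NdhS had 9.25 to 11.98 in wild type (median 10.3) and 7.55 to 9.41 in laf6 (median 8.62), with a log2 difference of -0.30 as deposited and -0.19 ± 0.12 (SE) after normalisation. Its groups overlapped between 9.25 and 9.41. It was lower in laf6 in 6 of 6 pairs of samples with the same number, from 3 replicates per group. Most probes were lower in laf6 on that deposited scale, and nothing is read from this count either. NdhN was listed at 0 in 3 wild type and 5 laf6 samples and did not exceed 0.041, so no fold is given for it.

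Both enzymes of mitochondria among the 7 were close to the lower end of the scale. GLDH, which makes ascorbate from L-galactono-1,4-lactone, reached 0.232 in wild type and 0.0609 in laf6 and was listed at 0 in 1 and 2 samples. ETFQO, which passes electrons from flavoproteins to ubiquinone, reached 0.290 in wild type and 0.157 in laf6 and was listed at 0 in 1 and 3 samples. Their groups overlapped, and their fitted differences depend on the value set for zeros. Over all 7 genes the median log2 difference was -1.28 as deposited and -0.59 after normalisation, beside -0.54 and -0.08 over all probes. Over the 4 of the 7 with no sample at 0 it was -0.35 and -0.05, beside -0.52 and -0.09 over the 2289 probes with no sample at 0.

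**Figure D4:**
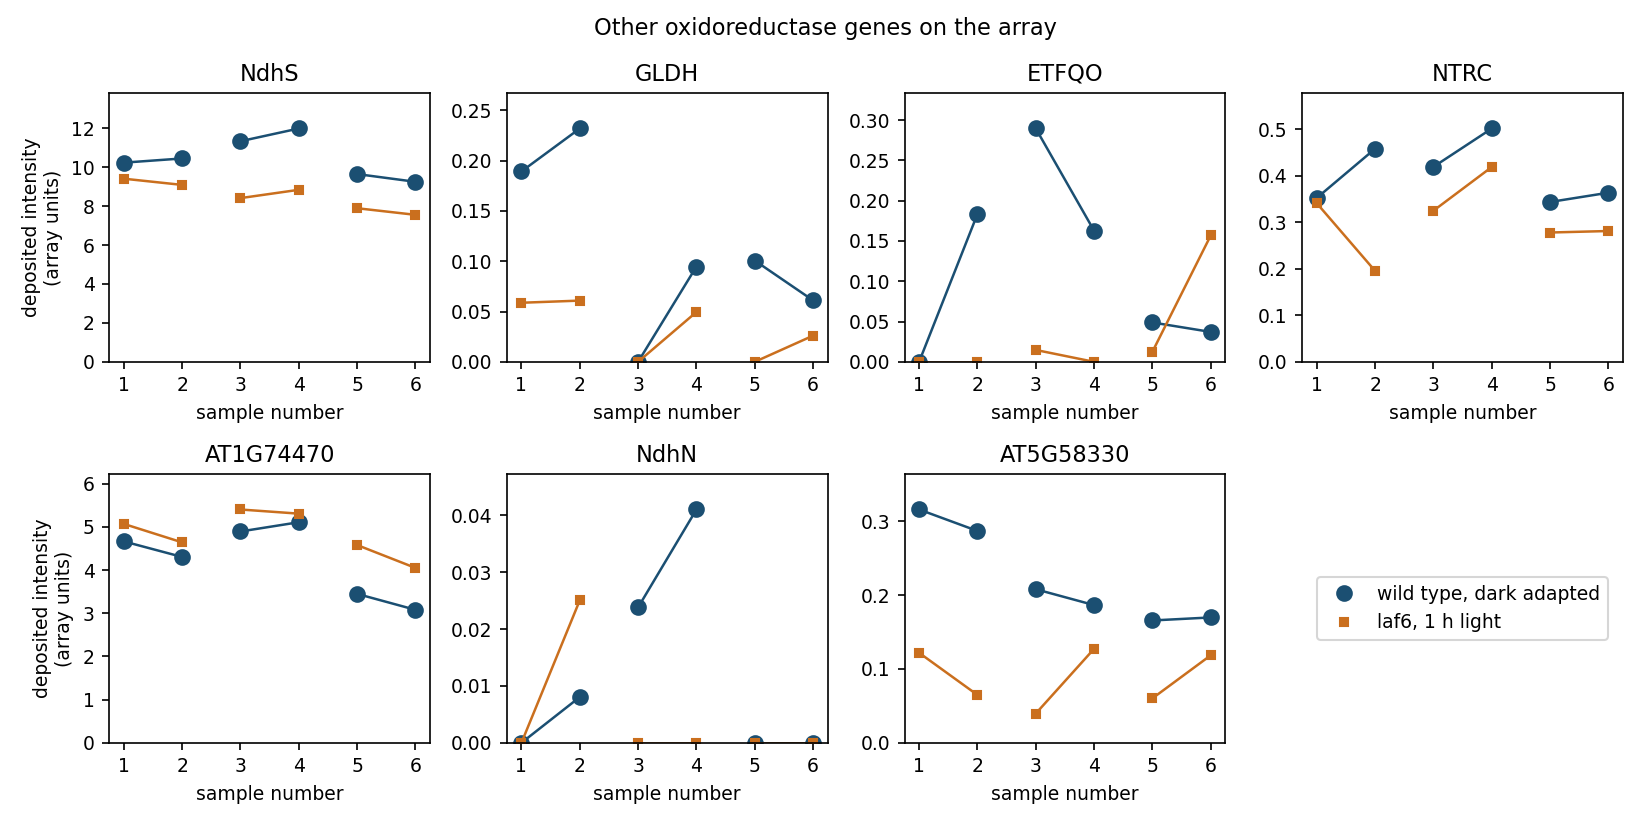
Deposited intensity (array units, linear axes from 0) of the 7 other oxidoreductase genes against the sample number, with circles for dark-adapted wild type, squares for laf6 after 1 h of light and lines between averaged samples. AT5G58330 is the only one of the 7 whose groups do not overlap, beside 17.9% of all probes with all laf6 samples below all wild type samples. GLDH, ETFQO and NdhN have samples at 0.

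The genes whose pattern was most like that of each gene were sought among 452 other probes of 1 gene with no sample at 0 or at the ceiling. Likeness was the root mean square difference of the normalised log2 profiles over the 6 replicates, each centred on its own mean, so that the difference between the groups has a large part in it. For AT3G04650 the closest was AT2G46300, of a hydroxyproline-rich glycoprotein family, at 0.069. AT1G01730 followed at 0.12, Z-ISO, the isomerase of zeta-carotene in carotenoid synthesis, at 0.15, AT2G36480 at 0.15 and AT3G56130, a biotin/lipoyl attachment domain protein, at 0.15. AT2G46300 went from 1.76 ± 0.226 in dark wild type to 0.729 ± 0.112 in illuminated laf6 (SD, n = 3 each), and Z-ISO from 0.396 ± 0.113 to 0.161 ± 0.0301.

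For AT4G31530 no gene was as close on this normalised scale, where its wild type replicates were given the same value and its difference was -1.55. The 5 genes closest to it had normalised differences of -1.17 to -0.98. As deposited, AT4G31530 had -1.18 and these 5 had -1.70 to -1.28. Likeness on the deposited scale was not examined. The nearest was AT2G36480 at 0.27, followed by AT3G56130 at 0.27, AT2G46300 at 0.27, AT5G35100, a cyclophilin, at 0.30 and AT2G32040, a folate transporter of the plastid, at 0.31. The intensity of AT2G36480 went from 1.74 ± 0.427 to 0.644 ± 0.0504. AT3G56130 had 0.270 ± 0.0241 and 0.0844 ± 0.0203 (SD, n = 3 each). AT3G04650 itself was in place 7 by likeness to AT4G31530, at 0.31, while AT4G31530 was in place 66 by likeness to AT3G04650. The lists of 5 shared AT2G36480, AT3G56130 and AT2G46300.

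The labels could be checked against the data only in part. SUFB, the gene missing in laf6, had no probe of 1 gene. Of 24 loci listed as markers of light, darkness or roots, 1 was measured, the light-raised LHB1B2, and no dark or root marker was. As deposited, the LHB1B2 spot read 14.1 to 23.2 in wild type (median 17.1) and 23.5 to 35.6 in laf6 (median 30.1). These groups did not overlap, as was so for 4.54% of all probes with laf6 higher. The log2 difference of LHB1B2 was 0.72 as deposited and 0.57 ± 0.17 (SE) after normalisation, and the gene was not called (adjusted p = 0.113 in limma). Its family holds near-identical copies, whose RNA the spot may not separate. In the TAIR10.1 gene order, none of the 4 nearest protein-coding neighbours of AT4G31530, and none of the 4 of AT3G04650, had a probe of 1 gene.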

How the data were processed

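The authors deposited spot intensities on a linear scale from 0 to 100. Background correction, scaling and the meaning of the ceiling are not given in the sources used here. A share of 13.0% to 19.3% of the probes of a sample was listed at 0. No counts exist, and the number of samples limits the precision. Genes come from the platform's annotation, which can be out of date: 692 probes had 1 gene, 870 several and 1877 none, and 690 of the 692 matched a locus of the RefSeq table.

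Samples were grouped by title. Samples 1 and 2, 3 and 4, and 5 and 6 of a group were averaged, zeros were set to the lowest positive deposited value (1.33e-05), and log2 values were quantile normalised. Each probe was compared with limma 3.58.1 (lmFit, eBayes) in R 4.3.3, as laf6 minus wild type, with Benjamini-Hochberg adjustment over 3439 probes. The procedure was tested on simulated data. Named genes are the 2 genes, the measured genes of the oxidoreductase lists, the 5 most alike genes of each and any shared probe. The genes and lists were chosen with earlier results of these data known.

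Same-numbered replicates of the groups deviated together, with correlations over all probes of 0.18, 0.10 and 0.17. The labels do not say whether equal numbers pair samples across the groups, and the evidence of the values is mixed. Over the 1387 brighter probes the correlations were 0.55, 0.45 and 0.17, but wild type replicate 2 with laf6 replicate 3 had 0.18. In AT4G31530 and AT3G04650, replicate 2 was the highest of wild type and the lowest of laf6. The planned fit has no block, so its p-values and its 335 calls do not use such a pairing. With the replicate number as a block, 12 probes were called.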

Additional observations from a re-analysis of the deposited data

Results flagged for a closer look

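Of 22 groups of 6 samples examined, 3 had a sample far from the others. Chance gives about 5% where the 6 values are independent and continuous, which repeat readings and samples at 0 are not. For probe 668, laf6 sample 3 had 1.01 and the other 5 lay between 0.667 and 0.777. For ETFQO, laf6 sample 6 had 0.157, with the others between 0 and 0.0147. For NdhN, laf6 sample 2 had 0.0251 and the other 5 were listed at 0, so that any value above 0 would stand apart. No sample of AT4G31530 or AT3G04650 stood apart in this way.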

How the results depend on the processing

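The log2 difference of AT4G31530 was -1.55 after quantile normalisation, -1.18 without normalisation and -0.57 with replicates centred on their medians. Leaving out 1 replicate gave -1.61 to -1.35 for AT4G31530 and -1.08 to -0.82 for AT3G04650, which was at -0.45 with medians centred. The other settings moved either value by less than 1 SD between replicates, and the replicate block leaves both as they are, since the pairs are complete. Of the 7 other oxidoreductase genes, 1 (AT5G58330) was called without normalisation and 0 in each other setting, including 0 to 0 when a replicate was left out. The setting without the dimmest 25% of probes held 6 of the 7.

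Against 335 probes called by limma, 189 higher and 146 lower, there were 114 higher and 362 lower without normalisation, 209 and 45 with medians centred, 774 in all (353 and 421) with the 12 samples unaveraged, and 12 in all (3 and 9) with the replicate block, which leaves 2 residual degrees of freedom. The pseudocount at the 25th percentile together with the block, chosen after seeing the data, gave 174 and 121. Leaving out 1 replicate gave 95 to 197 calls, 59 to 114 higher and 32 to 83 lower. Wild type replicates 1, 2 and 3 left out in turn gave 154, 105 and 95 in all, and those of laf6 155, 100 and 197. The cause was not tested, other than that fewer samples enter by construction. Values near 0 cannot be ranked.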
